A study of Mus musculus with 20 samples.

Results

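The genes Apoe, Lpl, Abca1, Abcg1, Pltp, Fabp3, Fabp4, Fabp5, Plin2 and Mgll act in lipid uptake, transport and storage. They were chosen by name, with earlier results of these data known. All 10 were measured both in cultured macrophages, among 15855 genes, and in cells sorted from tumors, among 15333 genes. B-MF were macrophages that arose from sorted bone marrow (BM) B cells in medium conditioned by 4T1.2 cells, and Mo-MF arose from monocytes in the same conditioned medium. 4T1.2 is a mouse mammary cancer cell line, so both cultures were exposed to the secreted products of a single cell line. Single-cell RNA sequencing (scRNA-seq) covered 2 libraries of B-MF, 2 libraries of Mo-MF and 4 libraries of tumor-associated macrophages (TAM) purified by flow cytometry from 4 different mice bearing 4T1.2 tumors, numbered 2 to 5 here as in the deposited table. ATAC-seq, which marks open chromatin, covered B-cell precursors (BMBP) from naïve mice in 4 groups of 3 libraries, CSF1R+ or CSF1R- and from BM or spleen; the sample labels call these cells macrophages. The mice were young females, and the labels name no transgene or deletion for any of these groups. The strain behind the cultures, C57BL/6 or BALB/c, is not given in the sources used here.

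In macrophages, lipoprotein lipase (LPL) frees fatty acids from triglyceride-rich lipoproteins, and fatty acid binding proteins (FABP3, FABP4 and FABP5) carry them through the cytosol. Surplus lipid is kept in droplets coated by perilipin 2 (PLIN2), and monoglyceride lipase (MGLL) completes the breakdown of stored triglyceride to glycerol and free fatty acids. Cholesterol leaves the cell through the transporters ABCA1 and ABCG1 onto lipid-poor apolipoproteins and high-density lipoprotein, apolipoprotein E (APOE) is the main apolipoprotein that macrophages secrete, and phospholipid transfer protein (PLTP) moves phospholipids between lipoproteins. Liver X receptors, which sense oxidized cholesterol, are known to drive Apoe, Abca1, Abcg1, Pltp and Lpl in macrophages, and peroxisome proliferator-activated receptors are known to drive Fabp4 and Plin2.

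The B-MF libraries held 5237 and 5326 cells, the Mo-MF libraries 4846 and 5389, and the tumor libraries 3180, 2318, 2387 and 3000. Each cell's counts had been corrected by the authors to a shared depth, and the medians per library of 18350 to 19469 corrected counts per cultured cell and 7651 to 8266 per tumor cell are therefore not sequencing depths. In the cultures, all 6 macrophage markers checked were above 0 in every library, with a summed mean of 132 to 136 in B-MF and 86.2 to 86.8 in Mo-MF. Transcripts of 5 neutrophil markers summed to 146 and 117 per cell in Mo-MF and to 1.06 and 0.724 in B-MF, and a neutrophil-like cluster held 5.67% and 4.79% of Mo-MF. In the tumor libraries, which the labels call macrophages, neutrophil-like clusters held 37.8% to 63.5% of the cells. Barcodes found in more than 1 library numbered 45 of 20753 in the cultures and 13 of 10872 in the tumors. No source states that the culture replicates came from separate cultures, so their p-values measure only the spread between these libraries, which may be technical.

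The chromatin of BMBP was examined at the starts of the member genes, using peaks that the authors called in each library and taking a peak within 1000 bases of an annotated start as present. Of the 10 members, 8 had a peak in all 3 libraries of BM CSF1R+ cells, against 55.3% of 21911 protein-coding genes. The number was 7 in BM CSF1R- cells (54.7% of genes) and 6 in each of spleen CSF1R+ cells (49.7%) and spleen CSF1R- cells (48.7%). Apoe, Abca1, Abcg1, Pltp, Plin2 and Mgll had a peak in all 12 libraries, as did 47.8% of genes, whereas Fabp3 and Fabp4 had a peak in none, as did 38.9% of genes. The share of members was not tested against that of other genes.

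Fabp5 and Lpl had peaks in BM libraries alone. Fabp5 had a peak in 6 of 6 BM libraries and in 0 of 6 spleen libraries, a pattern found at 3.19% of genes. Its summits lay away from the start, 496 to 537 bases before it in 5 libraries and 1014 bases past it in BM CSF1R+ replicate 2, so the 6 peaks were not a single site. Lpl had a peak in 3 of 3 BM CSF1R+ libraries, in 2 of 3 BM CSF1R- libraries and in none of the 6 spleen libraries, and a peak in at least 5 of 6 BM libraries and no spleen library was found at 4.17% of genes. These peaks were low. The fold enrichment that MACS2 gave, which is the signal at the peak over its local background, was 3.93, 6.53 and 7.16 for Lpl in BM CSF1R+ cells and 3.86 to 6.36 for Fabp5 in BM, while the median over all genes with a peak was 14.6 to 16.6 in the same libraries. The spleen lists were also shorter, with 43407 to 50392 peaks against 65832 to 76530 in BM, and the part of list length in the absence of a peak was not tested.

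At Plin2 the enrichment was 15.2, 15 and 16.2 in BM CSF1R+ cells, 18.5, 19.1 and 16 in BM CSF1R- cells, 10.9, 10.6 and 11.1 in spleen CSF1R+ cells and 8.37, 11.8 and 10.6 in spleen CSF1R- cells. Every BM library was above every spleen library, as at 4.86% of the 10482 genes with a peak in all 12 libraries. Abcg1 had the opposite order, with 5.43 to 6.37 in BM and 9.24 to 11.8 in spleen, as at 24.6% of those genes. Its peak covered the start in every library, but the summit lay 977 and 994 bases past the start in 2 BM libraries and within 17 bases of it in the others. For Apoe the strongest peak was 4.44 to 6.90 in BM and 8.28 to 9.42 in spleen, but it was not the same site in every library. Its summit lay 483 to 591 bases before the start in 5 BM and 3 spleen libraries and 910 to 940 bases past it in 1 BM and 3 spleen libraries. For Abca1 (13.1 to 15.3 in BM, 14.5 to 17.7 in spleen), Mgll (7.61 to 12.2 and 11.5 to 15.1) and Pltp (5.55 to 8.10 and 6.86 to 10.3), the ranges of the tissues overlapped. The strongest peak of Abca1 also differed in place, with a summit 1094 to 1102 bases past the start in 9 libraries and 85 to 97 bases before it in 3. The summit of the Plin2 peak lay 6 to 40 bases past the start in all 12 libraries, and that of Mgll between 11 bases before and 94 bases past it.

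The bases before the start are printed for Abca1 and Plin2, where a peak overlapped them in 12 of 12 libraries, for Pltp, where one did in 8 of 12, for Apoe, where one did in 4 of 12, and for Fabp3, which had no peak. Each run holds the 250 bases upstream of a RefSeq gene start in build GRCm38.p6, read 5′ to 3′ on the strand of the gene, with capitals marking the letters of a searched motif.
Abca1, chr4:53159896-53160145, minus strand: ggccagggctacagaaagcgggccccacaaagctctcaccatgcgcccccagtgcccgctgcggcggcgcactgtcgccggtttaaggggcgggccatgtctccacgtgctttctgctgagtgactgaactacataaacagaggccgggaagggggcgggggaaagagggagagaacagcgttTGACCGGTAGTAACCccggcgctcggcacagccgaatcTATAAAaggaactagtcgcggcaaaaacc
Plin2, chr4:86670060-86670309, minus strand: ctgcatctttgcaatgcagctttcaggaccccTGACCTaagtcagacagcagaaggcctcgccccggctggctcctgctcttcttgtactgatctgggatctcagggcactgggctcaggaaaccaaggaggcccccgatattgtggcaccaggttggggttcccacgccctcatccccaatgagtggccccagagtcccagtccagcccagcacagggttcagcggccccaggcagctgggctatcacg
Apoe, chr7:19699189-19699438, minus strand: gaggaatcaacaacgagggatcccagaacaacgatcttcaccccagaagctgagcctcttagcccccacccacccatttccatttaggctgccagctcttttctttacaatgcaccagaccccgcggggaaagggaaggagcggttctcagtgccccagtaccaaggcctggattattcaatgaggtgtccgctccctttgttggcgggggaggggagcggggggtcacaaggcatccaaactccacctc
Pltp, chr2:164857709-164857958, minus strand: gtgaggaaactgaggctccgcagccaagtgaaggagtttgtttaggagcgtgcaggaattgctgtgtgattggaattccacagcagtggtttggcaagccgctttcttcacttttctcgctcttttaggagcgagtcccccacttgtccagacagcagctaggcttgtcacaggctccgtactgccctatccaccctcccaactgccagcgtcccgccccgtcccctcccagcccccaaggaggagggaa
Fabp3, chr4:130308488-130308737, plus strand: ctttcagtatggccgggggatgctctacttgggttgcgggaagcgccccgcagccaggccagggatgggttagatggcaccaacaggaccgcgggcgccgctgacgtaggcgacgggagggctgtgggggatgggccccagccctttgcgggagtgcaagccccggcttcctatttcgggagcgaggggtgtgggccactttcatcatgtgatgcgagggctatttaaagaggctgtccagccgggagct
A degenerate form of the liver X receptor element, the nuclear receptor half-site AGGTCA, direct repeats of that half-site with 4 bases or 1 base between them, and the TATA box TATAAA were searched on both strands over 300 bases (250 before and 50 past) at each of 32851 mouse gene starts, of which 9 belonged to 6 of the members. The degenerate liver X receptor element was found at Abca1 as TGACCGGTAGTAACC, at position -67 from the start, and at 16 of all promoters (0.0487%). AGGTCA was found at Plin2 on the reverse strand, at position -218, where it reads TGACCT, and at 16.3% of all promoters. TATAAA was found at Abca1 at position -29, at Pltp at position 36, past the start, and at an internal start of Apoe, against 13.6% of all promoters. The direct repeats, which 0.0152% and 0.0396% of promoters hold, were not among the letters of the 9 promoters of members. The letters of the degenerate liver X receptor element were not shown to be chosen independently of the Abca1 promoter. The share of promoters that hold this element is therefore no background for its match at Abca1. A match describes letters and does not show that a factor binds.

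In GRCm38, with annotation from GENCODE, the 10 genes lie on 7 chromosomes. Fabp4 (chr3:10204088-10208576, minus strand) and Fabp5 (chr3:10012548-10016607, plus strand) lie 187 kb apart and are transcribed in opposite directions, with Fabp9 and Pmp2, which belong to the same family, between them. Abca1 (chr4:53030787-53159895, minus strand), Plin2 (chr4:86648386-86670060, minus strand) and Fabp3 (chr4:130308595-130315463, plus strand) share chromosome 4 at a distance of many megabases. The others are Apoe (chr7:19696109-19699188, minus strand), Lpl (chr8:68880491-68907448, plus strand), Abcg1 (chr17:31057675-31117988, plus strand), Pltp (chr2:164839518-164857711, minus strand) and Mgll (chr6:88724412-88828360, plus strand).

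To learn how B-MF and Mo-MF differ in lipid handling, the mean corrected count per cell of each library was compared. B-MF had more Lpl and Fabp3 and less Apoe, Abca1, Abcg1, Pltp, Fabp4, Fabp5, Plin2 and Mgll than Mo-MF. All 10 members passed the test (limma on log2 of the mean plus 0.1, Benjamini-Hochberg adjusted over 8633 genes), against 39.5% of all genes. The members were chosen with earlier results of these data known, so the share of all genes is no test of the list. The 2 higher members stand beside 22.6% of genes called higher in B-MF, and the 8 lower members beside 16.9% called lower. These shares moved with single libraries, to 44.3% higher without B-MF replicate 2, 34.3% lower without B-MF replicate 1, 13.1% higher and 10.1% lower without Mo-MF replicate 1 and 12.9% higher without Mo-MF replicate 2. The means of the B-MF replicates differed by more than the 95% range of their sampling error over cells at 67.8% of genes, against 14.6% for the Mo-MF replicates. The libraries of the 2 cell types did not overlap for any member, nor for 69.6% of genes, and the median difference over all genes was 0.02 (log2).

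Apoe, the secreted carrier, averaged 146 and 139 corrected counts in the cells of B-MF against 507 and 499 in Mo-MF. Both Mo-MF libraries were well above both B-MF libraries, and the log2 difference of B-MF from Mo-MF was -1.82 (SE 0.05, 95% interval -1.94 to -1.70, limma adjusted p = 1.26e-07). The distribution over cells differed more than the mean, since the median cell held 40 and 35 counts in B-MF against 447 and 436 in Mo-MF. Pltp, which remodels lipoproteins outside the cell, had means of 14.5 and 14.1 in B-MF against 16.9 and 17 in Mo-MF. The libraries separated by a small margin, with a log2 difference of -0.24 (SE 0.05, limma adjusted p = 0.0062), which lost its call when Mo-MF replicate 1 or 2 was left out (adjusted p = 0.063 and 0.079). Lpl went the other way, with 17.4 and 17.5 counts per cell in B-MF against 10.1 and 10.6 in Mo-MF. Both B-MF libraries were above both Mo-MF libraries, by 0.75 on the log2 scale (SE 0.05, limma adjusted p = 1.59e-05), and the median cell held 7 counts in each B-MF library and 3 in each Mo-MF library.

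Of the efflux transporters, Abcg1 had 0.643 and 0.613 counts per cell in B-MF against 1.09 and 1.12 in Mo-MF. It was lower in B-MF by a log2 difference of -0.73 (SE 0.05, limma adjusted p = 1.68e-05). Abca1 had 1.93 and 1.80 counts in B-MF against 2.13 and 2.10 in Mo-MF. Its libraries were closely spaced, and the log2 difference of -0.17 (SE 0.05, limma adjusted p = 0.036) was no longer called without Mo-MF replicate 1 (adjusted p = 0.28), without Mo-MF replicate 2 (0.20), with a pseudocount of 0.01 (0.070) or without the filter on low values (0.066).

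The 3 fatty acid binding proteins did not move as one. Fabp3, the heart and muscle type, had 1.15 and 1.01 counts per cell in B-MF against 0.380 and 0.382 in Mo-MF. It was higher in B-MF by 1.29 on the log2 scale (SE 0.06, 95% interval 1.14 to 1.44, limma adjusted p = 2.25e-06) and was counted in 47.4% and 44.9% of B-MF against 22.6% and 23.6% of Mo-MF. Fabp4, the adipocyte and macrophage type, had 6.14 and 6.05 counts in B-MF against 14.9 and 15.7 in Mo-MF. Fabp5, the epidermal type that macrophages also make, had 138 and 136 counts in B-MF against 209 and 213 in Mo-MF. Both were lower in B-MF, with log2 differences of -1.31 (SE 0.05, limma adjusted p = 6.28e-07) for Fabp4 and -0.63 (SE 0.05, limma adjusted p = 3.24e-05) for Fabp5. The adipocyte markers Adipoq, Plin1, Cidec and Lep were not among the genes of the culture table.

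Among the storage genes, Plin2 had 9.72 and 9.91 counts per cell in B-MF against 31.1 and 31.5 in Mo-MF. The groups were far apart relative to the spread of their libraries, with a log2 difference of -1.66 (SE 0.05, limma adjusted p = 1.57e-07), and the median cell held 8 and 9 counts in B-MF and 29 in each Mo-MF library. Mgll had the widest log2 difference of the members at the pseudocount of 0.1, with 0.116 and 0.104 counts in B-MF against 1.22 and 1.23 in Mo-MF. Its B-MF means lay near that pseudocount, so the size and rank of its difference depend on this setting. Mgll was lower in B-MF by a log2 difference of -2.66 (SE 0.05, 95% interval -2.78 to -2.54, limma adjusted p = 2.76e-08) and was counted in 3.76% and 3.55% of B-MF against 29.9% and 31.0% of Mo-MF. Csf1r, the receptor used to define the tumor cells described further on, was counted in 97.0% to 99.6% of cultured cells and had 11 and 10.9 counts per cell in B-MF against 5.87 and 5.66 in Mo-MF.

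**Figure D1:**
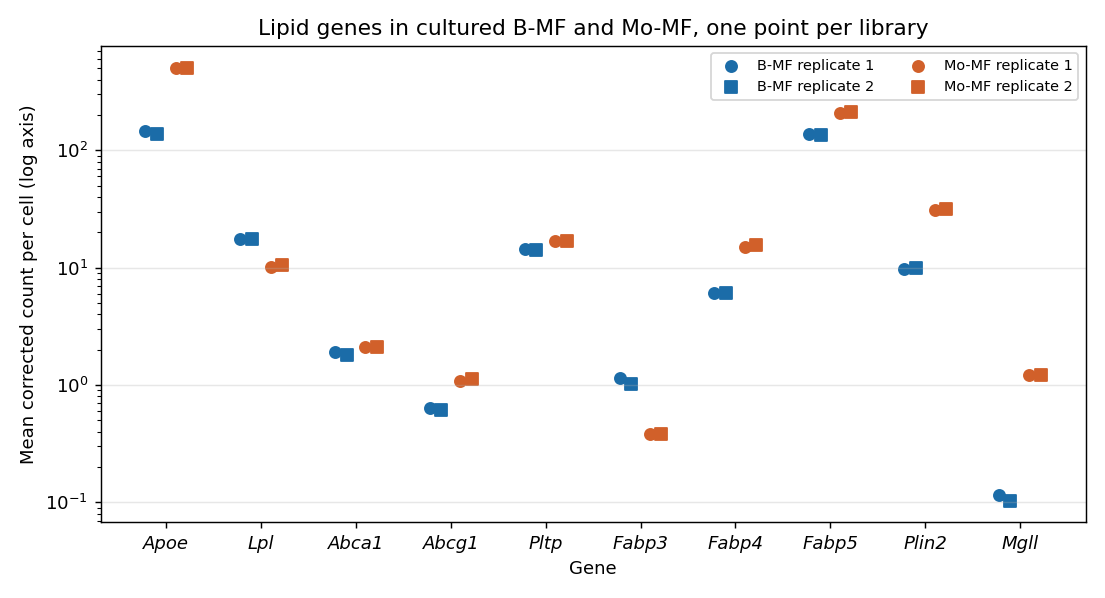
Mean corrected count per cell (vertical log axis, no unit) of each lipid gene (horizontal axis), with 1 point per library for B-MF (blue) and Mo-MF (orange). The 2 libraries of a cell type nearly coincide, and B-MF lie above Mo-MF only for Lpl and Fabp3.

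Markers of other cell types moved with the culture. Beside the neutrophil markers, 5 monocyte markers summed to 0.187 and 0.135 per cell in B-MF against 2.91 and 2.72 in Mo-MF, and 3 osteoclast markers to 0.612 and 0.554 against 2.63 and 2.45, and the part of the osteoclast markers was not tested. The comparison was repeated without the neutrophil-like cluster, which held 275 and 258 Mo-MF cells and 2 and 0 B-MF cells. All 10 members kept their call and direction, the 2 higher beside 20.4% of genes called higher and the 8 lower beside 17.5% called lower, with log2 differences of -1.89 for Apoe, -0.21 for Abca1 (limma adjusted p = 0.020), -0.30 for Pltp, 0.69 for Lpl, 1.23 for Fabp3 and -2.72 for Mgll. After removal of every cluster that met markers of neutrophils, T/NK, B, dendritic cells, fibroblasts or basophils, which took out 5.48% to 6.68% of B-MF and 14.4% to 15.6% of Mo-MF, the 10 members again kept call and direction (Apoe -1.91, Lpl 0.66, Plin2 -1.74), beside 20.5% of genes called higher and 16.5% called lower. This second removal was chosen after the data had been seen.

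Of 65 other lipid genes on a list of receptors, lysosomal and droplet enzymes, apolipoproteins, binding proteins, regulators and genes of lipid-associated macrophages, 44 were tested in the cultures. In B-MF 11 were higher, beside 22.6% of all genes, 16 were lower, beside 16.9%, and 17 were not called, with a median difference of -0.06 (log2) against 0.02 over all genes. Of the lysosomal and lipolytic enzymes, 7 of 8 tested were lower in B-MF and 0 higher, again beside 16.9% and 22.6% of all genes, and this sublist was singled out of 7 after its values were seen. The lower genes were Lipa, the lysosomal acid lipase, Npc1 and Npc2, which export cholesterol from lysosomes, Pnpla2 and its activator Abhd5, which start the breakdown of droplets, Nceh1, a cholesteryl ester hydrolase, and G0s2, an inhibitor of that breakdown. Uptake receptors had 3 higher and 0 lower of 7 tested. The regulators had 3 higher of 10 (Lpcat3, Lmf1 and Srebf2) and 4 lower (Nr1h3, the gene of liver X receptor alpha, Rxra, Pparg and Mylip). Nr1h2, Ppard and Srebf1 were not called, with log2 differences of 0.08, -0.0076 and 0.02.

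By size, the 5 largest increases of that list in B-MF were Gpnmb, Acsl3, Lrp1, Trem2 and Lpcat3. Gpnmb, a transmembrane glycoprotein of lipid-laden macrophages, had 127 and 128 counts per cell in B-MF against 66.3 and 64.1 in Mo-MF (log2 difference 0.97, SE 0.05). Trem2, a lipid-sensing receptor of the same cells, had 46.8 in both B-MF libraries and 33.0 and 33.3 in Mo-MF (log2 difference 0.50), and Lrp1, a receptor for remnants that carry APOE, had 5.22 and 5.16 against 3.48 and 3.44 (0.57). Acsl3, which activates fatty acids for droplets, differed by 0.89 and Lpcat3, which remodels phospholipids, by 0.42. Of the 6 listed genes of lipid-associated macrophages, 3 were higher in B-MF, beside 22.6% of all genes, and 1, Lgals3, was lower, beside 16.9%. Spp1 and Cd9 of that sublist were not called. G0s2 and Fabp7 reached the filter on low values only through Mo-MF, so their calls, also within the counts above, are no support. The 5 largest decreases were G0s2 (-2.54), Fabp7 (-1.04), Lgals3 (-0.68), Nr1h3 (-0.66) and Soat1, which esterifies cholesterol (-0.54). G0s2 had 0.00974 and 0.00188 counts per cell in B-MF against 0.559 and 0.478 in Mo-MF, and it fell under the filter on low values once the neutrophil-like cluster was removed. Without that cluster all 11 higher genes and 14 of the 16 lower genes were still called.

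The cells of each culture were not uniform in these genes. In the clusters described next the member genes were part of the clustered values, so the figures are descriptions without a test. Cluster 0 (4647 cells, nearly all B-MF, macrophage-like by 6 of 6 markers) held 29.0 and 28.6 Lpl counts per cell, by B-MF library, Fabp3 at 1.90 and 1.60, and Fabp4 at 10.0 and 9.37. Cluster 1 (3621 cells, also B-MF and macrophage-like) held Lpl at 6.0 and 6.45 and Fabp4 at 2.78 and 3.22, but Apoe at 206 and 194, Pltp at 21.1 and 19.5 and Abca1 at 2.78 and 2.58. In cluster 0 Apoe stood at 76.7 and 72.8, Pltp at 8.81 and 8.84 and Abca1 at 1.13 in both libraries. Abcg1 did not follow Abca1, with 0.772 and 0.724 in cluster 0 and 0.620 and 0.582 in cluster 1. Cluster 6, also macrophage-like and mostly B-MF (480 and 548 cells by B-MF library), is not covered by this description.

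A like division ran through Mo-MF. Cluster 2 (3232 cells, macrophage-like, led by Mmp14, Slpi and Apoe) held Apoe at 776 and 759, Pltp at 22 and 21.9 and Abca1 at 3.52 and 3.47, with Lpl at 5.12 and 5.67. Cluster 3 (2531 cells, led by Bex1, Pdpn and Arg1, with too few raised markers to be named) held Lpl at 21.4 and 21.9, Fabp4 at 28.1 and 29.4, Fabp5 at 299 and 302, Plin2 at 39.8 and 40.4 and Mgll at 2.51 and 2.29, with Pltp at 10.9 in both libraries. Cluster 4 (2062 cells, led by Ly6a and Ccl7) combined Pltp at 22.1 and 21.7 with Plin2 at 33.3 and 32.2 and with little Abca1 (0.767 and 0.695) and Mgll (0.157 and 0.124). In the Mo-MF clusters 2, 3 and 4, Plin2 was never under 28.2, whereas the B-MF clusters 0 and 1 held 8.10 to 11.1. Other clusters with Mo-MF cells are not covered by this description. Among them, cluster 10 (506 cells, with 235 and 230 Mo-MF by library) had Fabp4 and Fabp5 among its 10 leading genes.

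**Figure D2:**
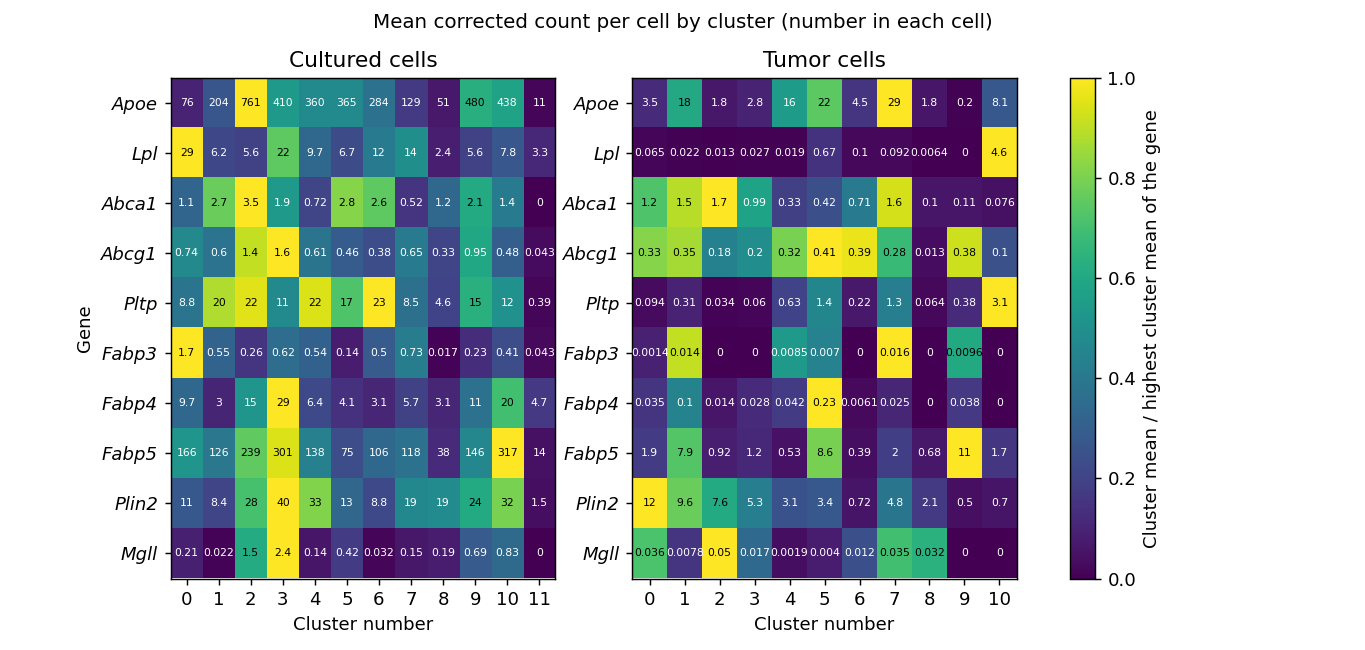
Mean corrected count per cell of each lipid gene (rows) in each cluster (columns) of cultured cells (left) and tumor cells (right), printed in the cell and colored by its ratio to the highest cluster mean of that gene. Lpl peaks in clusters 0 and 3 of the cultures, where Pltp is low, and in cluster 10 of the tumors.

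Co-expression was measured as Spearman rho over the cells of 1 library, for members counted in at least 5% of cells, which were 9 members in B-MF, 10 in Mo-MF and up to 7 in tumor cells. Cells of a library share its preparation and differ in depth, so rho is a description and carries no p. In B-MF (5237 and 5326 cells) 21 of 36 pairs had a mean rho above 0, with a median over pairs of 0.06 in each library. In Mo-MF (4846 and 5389 cells) it was 32 of 45 pairs, with medians of 0.13 and 0.11. Pairs of other genes were not counted, so whether the members went together more than other genes was not tested.

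Apoe and Pltp went together over cells in every library, with a rho of 0.41 and 0.42 in B-MF, 0.46 and 0.47 in Mo-MF and 0.22, 0.25, 0.24 and 0.28 in the Csf1r-positive cells of tumor libraries 2 to 5. Pltp was the gene with the highest rho to Apoe of 9298 genes compared in B-MF, and Apoe was the gene with the highest rho to Pltp of 9539 in Mo-MF. Fabp4 and Fabp5 had the highest rho of all member pairs in the cultures, at 0.50 and 0.46 in B-MF against 0.60 and 0.61 in Mo-MF, and each was the other's first neighbor in both. Apoe and Abca1, a carrier and the transporter that loads it, had a rho of 0.19 and 0.17 in B-MF against 0.35 and 0.36 in Mo-MF.

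Lpl opposed the carrier genes in both cultures. Its rho with Pltp was -0.32 and -0.31 in B-MF and -0.21 in both Mo-MF libraries, and with Apoe -0.26 and -0.27 in B-MF, or -0.20 and -0.22 in Mo-MF. When B-MF were ranked by Lpl, the 1309 and 1331 cells with least Lpl in each library held 222 and 211 Apoe counts per cell, and as many cells with most Lpl held 78.4 and 73.7. Pltp went from 20.2 and 18.5 to 9.77 and 9.69, while Plin2 went from 7.48 and 7.75 to 12.3 and 12.4 and Fabp4 from 3.4 and 3.36 to 9.78 and 8.95. Mean totals of these cells were 18890 and 18433 corrected counts in the lowest and 19527 and 19090 in the highest. The corrected total of a B-MF cell itself went with Lpl (rho 0.30 and 0.31) and against Pltp (-0.38 in both libraries) and Apoe (-0.23 and -0.21). With every cell thinned to 10000 counts, the rho of Lpl in B-MF was -0.30 and -0.28 with Pltp and -0.25 and -0.26 with Apoe. In Mo-MF the same ranking took Apoe from 570 and 577 to 412 and 392 and Plin2 from 30 and 30.5 to 35.9 and 36.0, so the order held, with smaller ratios between the cells compared than in B-MF.

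Among all genes compared, those most like Lpl over cells were Cd9, Cd36 and Fam20c in B-MF (mean rho 0.61, 0.57 and 0.50) and Cd36, Myo1e and Mmp12 in Mo-MF (0.49, 0.47 and 0.44), of which Cd36 is a fatty acid translocase. For Apoe they were Pltp, Pla2g7 and Ccl8 in B-MF (0.41, 0.41 and 0.34) and Trf, Fcgr2b and Mpeg1 in Mo-MF (0.58, 0.56 and 0.54). Plin2 was nearest to Lpl, Ctsl and Anxa1 in B-MF (0.31, 0.31 and 0.30) and to Ctsl, Ftl1 and Lgals3 in Mo-MF (0.53, 0.46 and 0.44). Fabp3 was nearest to Lgals3, Ftl1 and Fabp5 in B-MF (0.40, 0.37 and 0.36), and to Spp1, Lgals3 and Ftl1 in Mo-MF at lower values (0.23, 0.22 and 0.21). Mgll, counted often enough only in Mo-MF among the cultures, was nearest to Atp6v0d2, Ctsd and Psap (0.43, 0.39 and 0.35), genes of the lysosome and its proton pump.

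Fabp4 had Fabp5, Lgals3 and Hk3 as nearest genes in B-MF (0.48, 0.38 and 0.32) and Fabp5, Atp6v0d2 and Ctsl in Mo-MF (0.60, 0.50 and 0.47). After Fabp4, Fabp5 was nearest to Lgals3 and Ftl1 in B-MF (0.47 and 0.46) and to Ctsl and Fth1 in Mo-MF (0.60 and 0.54). Abca1 went with Trf, Malat1 and Fcgrt in B-MF (0.36, 0.35 and 0.33) and with Fcgr2b, Trf and Apoe in Mo-MF (0.42, 0.41 and 0.36), and Abcg1 with Gpx1, Creg1 and Ctsl in B-MF (0.25, 0.25 and 0.24) and with Creg1, H2-D1 and Psap in Mo-MF (0.36, 0.35 and 0.35). Pltp was nearest to H2-K1, H2-D1 and Trf in B-MF (0.51, 0.48 and 0.48) and, after Apoe, to Selenop and Hexa in Mo-MF (0.44 and 0.39).

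**Figure D3:**
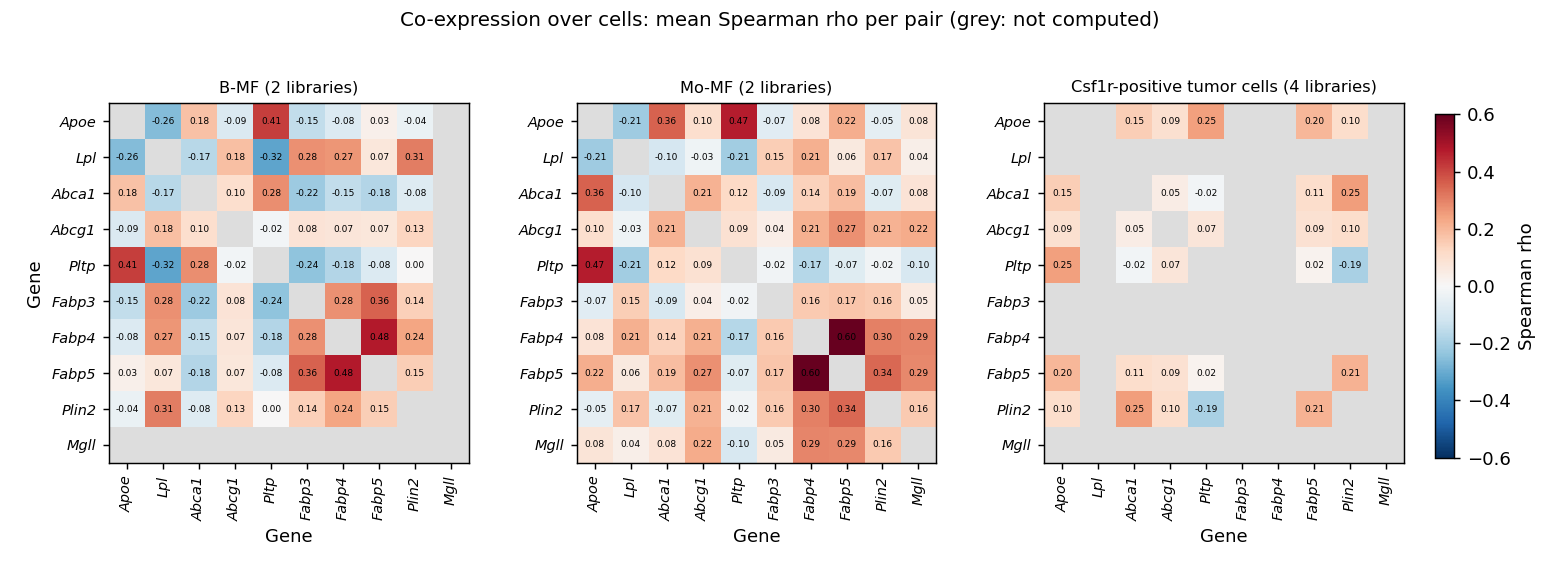
Mean over libraries of Spearman rho for each pair of lipid genes over cells, in B-MF, Mo-MF and Csf1r-positive tumor cells (color from -0.6 to 0.6, value printed, grey where a gene was counted in under 5% of cells of a library). Apoe with Pltp is positive in all 3 panels, Lpl with Pltp is negative in both cultures, and Abca1 with Plin2 is 0.25 only in tumor cells.

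In the tumors, cells with at least 1 corrected Csf1r count were taken as Csf1r-positive, a class set by the macrophage growth factor receptor and not by any member gene. They numbered 1872, 906, 1122 and 1259 in libraries 2 to 5, or 58.9%, 39.1%, 47.0% and 42.0% of the cells. The summed mean of 6 macrophage markers was 9.04 to 23.3 in these cells and 4.43 to 9.13 in Csf1r-negative cells. Neutrophil-like clusters held 14.6% to 32.2% of the Csf1r-positive cells and 70.9% to 83.6% of the Csf1r-negative cells, so the contrast of the classes is also a contrast of neutrophil content. Summed markers of B cells were at 0.0449 to 0.220 in Csf1r-positive and 0.251 to 2.53 in Csf1r-negative cells, and those of dendritic cells at 0.0728 to 0.300 and 1.11 to 1.43. The classes also differed in genes detected, with library medians of 2296 to 2468.5 in Csf1r-positive and 1387 to 1441 in Csf1r-negative cells. The part of detection in the differences between the classes was not tested. The cultures and the tumors were corrected separately, and levels between them were not tested.

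In Csf1r-positive cells Apoe had means of 20.9, 13.6, 13.5 and 15.3, Plin2 of 6.12, 7.80, 5.63 and 7.01, and Fabp5 of 6.23, 2.87, 4.50 and 3.77 counts, in the order of libraries 2 to 5. Abca1 had 1.10, 0.990, 1.12 and 1.02, and Abcg1 0.348, 0.308, 0.352 and 0.283. Library 2 had the most Apoe and Fabp5, library 3 the least Fabp5 and the most Plin2, and Abca1 and Abcg1 were close to level across libraries. Lpl, with 17.4 and 17.5 counts per cell in B-MF, stood at 0.308, 0.0839, 0.261 and 0.122 in Csf1r-positive tumor cells and was counted in 8.01%, 2.65%, 7.31% and 4.37% of them. Per 10000 corrected counts of the cells, Plin2 was at 7.36, 9.52, 6.83 and 8.5 in Csf1r-positive tumor cells, beside 5.10 and 5.30 in B-MF or 16.3 and 16.6 in Mo-MF, whereas Apoe was at 16.4 to 25.1 beside 76.6 and 74.4 in B-MF or 267 and 263 in Mo-MF.

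**Figure D4:**
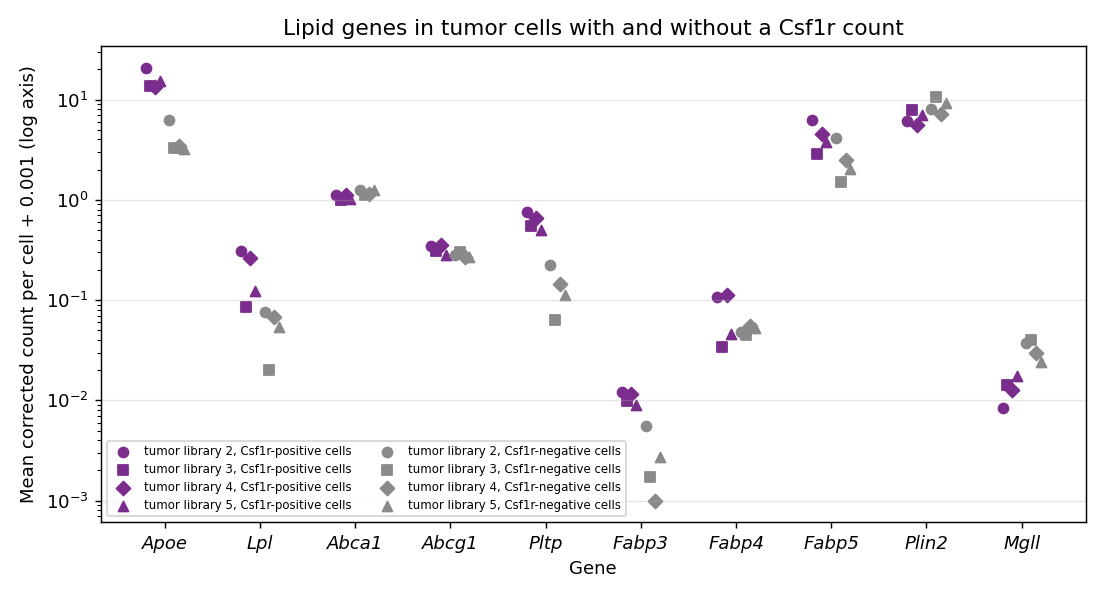
Mean corrected count per cell plus 0.001 (vertical log axis, no unit) of each lipid gene in Csf1r-positive (purple) and Csf1r-negative (grey) cells, with 1 symbol shape per tumor library. Apoe and Pltp separate the classes, while Abca1 and Abcg1 overlap. Lpl separates them by a small margin at low counts, with 0.0839 the lowest Csf1r-positive mean and 0.0749 the highest Csf1r-negative mean. Among the members too low for the test, Fabp3 also lies higher in every Csf1r-positive library and Mgll lower.

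Csf1r-positive cells were compared with Csf1r-negative cells of the same libraries (limma, library as a block, 5926 genes tested). Apoe, Pltp, Fabp5, Abcg1 and the sparse Lpl were higher in Csf1r-positive cells, and Plin2 and Abca1 were lower. Of the 10 members 7 were tested and each was called, against 83.9% of genes, with 5 higher beside 66.8% of genes and 2 lower beside 17.1%. Lpl passed the filter on low values only through the Csf1r-positive cells, so its call is no support for a difference. The median difference over all genes was 0.34 (log2), and Fabp3, Fabp4 and Mgll were under the mean of 0.1 needed for the test. Of the tested members, the classes did not overlap over libraries for Apoe, Pltp and Lpl, nor for 71.2% of genes.

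Apoe had means of 6.24, 3.29, 3.47 and 3.21 in Csf1r-negative cells, all under the lowest Csf1r-positive library, and differed by 1.97 on the log2 scale (SE 0.07, limma adjusted p = 6.16e-08). It was counted in 70.6% to 83.3% of Csf1r-positive and 50.3% to 60.9% of Csf1r-negative cells, a share that in droplet libraries can include free RNA. Pltp had 0.757, 0.546, 0.660 and 0.494 in Csf1r-positive and 0.222, 0.0623, 0.142 and 0.110 in Csf1r-negative cells, a difference of 1.64 (SE 0.09, limma adjusted p = 2.44e-07). Lpl had 0.0749, 0.0191, 0.0664 and 0.0528 in Csf1r-negative cells, a difference of 0.88 (SE 0.11) given as a description. The shift of 0.34 of the median gene has not been taken off these differences.

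Fabp5 had 4.13, 1.52, 2.52 and 2.05 in Csf1r-negative cells, overlapping the Csf1r-positive libraries, but was higher in the Csf1r-positive cells of each of the 4 libraries, by 0.78 on average (SE 0.06, limma adjusted p = 1.75e-06). Plin2 had 7.96, 10.6, 7.15 and 9.34 in Csf1r-negative cells and was lower in the Csf1r-positive cells of 4 of 4 libraries, with a log2 difference of -0.39 (SE 0.05, limma adjusted p = 3.33e-05). Abca1 had 1.25, 1.10, 1.15 and 1.26 in Csf1r-negative cells, a log2 difference of -0.16 (SE 0.05, limma adjusted p = 0.020), which was not called without library 5 (adjusted p = 0.10). Abcg1 had 0.284, 0.300, 0.270 and 0.271, a difference of 0.15 (SE 0.06, limma adjusted p = 0.039), under the median of all genes. It was not called per 10000 corrected counts (limma adjusted p = 0.25), nor without library 2 (limma adjusted p = 0.12) or library 4 (limma adjusted p = 0.18).

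The 3 members too low for the test are given as values. Mgll had 0.00748, 0.0132, 0.0116 and 0.0167 counts per cell in Csf1r-positive and 0.0367, 0.0390, 0.0285 and 0.0230 in Csf1r-negative cells. Fabp4 had 0.106, 0.0331, 0.112 and 0.0453 against 0.0466, 0.0439, 0.0538 and 0.0511, and Fabp3 was at or under 0.0112 in every library and class. Adipoq, the single adipocyte marker in the tumor table, had at most 0.00345 counts per cell in either class.

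Cluster 0 (2797 cells), the largest of the neutrophil-like clusters, also had 4 of 6 macrophage markers raised. With the neutrophil-like clusters removed, the picture of the members changed. Of 8 members then tested, Apoe (0.95, SE 0.10, limma adjusted p = 0.00061), Pltp (0.88, SE 0.17, limma adjusted p = 0.0059) and Lpl (0.38, SE 0.10, limma adjusted p = 0.021) were still higher in Csf1r-positive cells, beside 26.3% of genes, and none was lower, beside 12.4%. Fabp5 stood at -0.17 (limma adjusted p = 0.29), Abcg1 at -0.13 (0.29), Plin2 at 0.13 (0.44), Abca1 at 0.09 (0.41) and Fabp4 at -0.32 (0.14), none of them called. The median over all genes was then 0.07. The direction of Fabp5, Abcg1, Plin2 and Abca1 in the contrast of all cells was thus not kept without neutrophil-like cells. Of the Csf1r-negative cells then left, 15.3% to 40.8% lay in the B-like and dendritic-like clusters, against at most 0.665% of the Csf1r-positive cells. The B-like cluster (330 cells) also met the marker lists of T/NK, fibroblast, epithelial and dividing cells. Without those clusters too, a removal chosen after the data were seen that left 151 to 322 Csf1r-negative cells in a library, Apoe (0.58, SE 0.08, limma adjusted p = 0.0058) and Pltp (0.71, SE 0.15, limma adjusted p = 0.018) were higher, beside 14.2% of genes. Fabp5 (-0.46, SE 0.09, limma adjusted p = 0.013) and Plin2 (-0.39, SE 0.08, limma adjusted p = 0.018) were lower, beside 2.49% of genes, and Lpl (0.26, limma adjusted p = 0.29), Abca1 (-0.12, 0.34), Abcg1 (-0.099, 0.29) and Fabp4 (-0.62, 0.059) were not called. The call of Lpl and the directions of Fabp5, Abcg1, Plin2 and Abca1 thus depended on which cells were compared, whereas Apoe and Pltp were higher in each of these 3 fits.

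**Figure D5:**
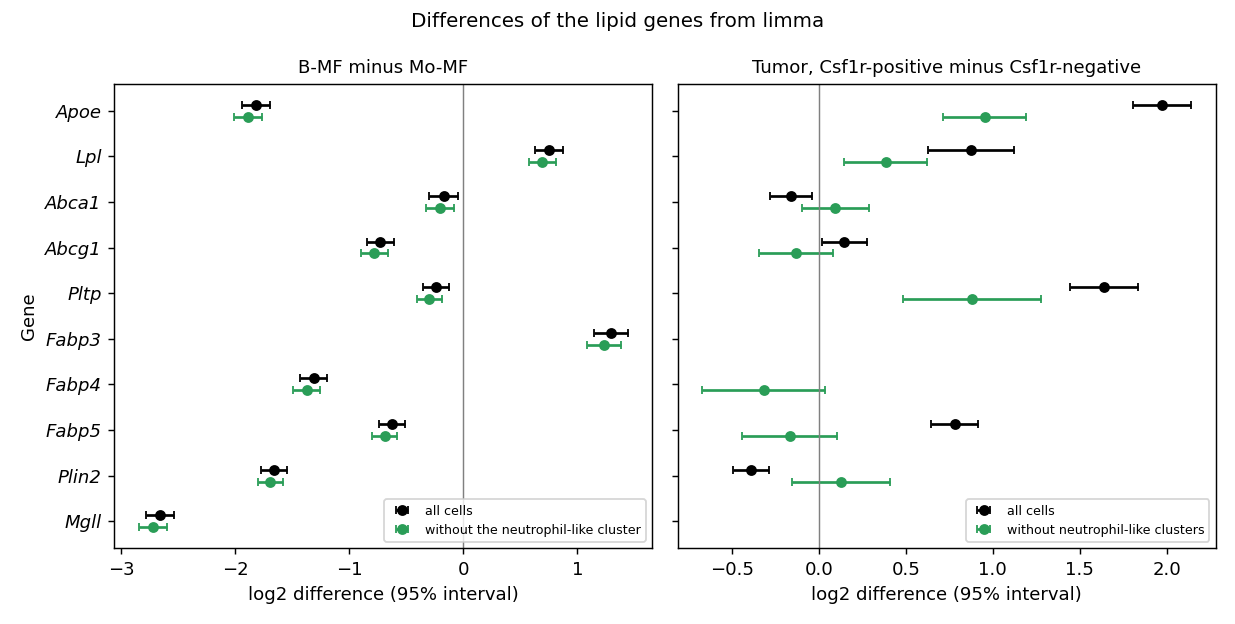
Log2 difference of each lipid gene with its 95% interval from limma, for B-MF minus Mo-MF (left) and Csf1r-positive minus Csf1r-negative tumor cells (right), over all cells (black) and without neutrophil-like clusters (green). On the left both estimates nearly coincide, and on the right Apoe and Pltp stay above 0 while Fabp5, Abcg1, Plin2 and Abca1 change sign.

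The wider lipid list had 37 genes tested in the tumors, with 16 higher in Csf1r-positive cells, beside 66.8% of all genes, 11 lower, beside 17.1%, and a median difference of 0.08 (log2) against 0.34 over all genes. Of the uptake receptors, 4 of 6 tested were higher and 1 was lower. Lrp1 had 1.95, 1.67, 1.83 and 1.65 counts per cell in Csf1r-positive and 0.432, 0.251, 0.358 and 0.245 in Csf1r-negative cells (2.18, SE 0.07). Msr1, a scavenger receptor, differed by 2.03, Trem2 by 1.68 and Scarb1, the receptor of high-density lipoprotein, by 1.30, and these 4 genes were still called without neutrophil-like clusters (0.97, 0.93, 0.73 and 0.87). Scarb1, Lipe, Gpat4 and Abca7, counted among the 16, reached the filter on low values only through the Csf1r-positive cells, so their calls are no support. The 5 largest decreases were G0s2 (-1.29), Hilpda (-1.0), Cd9 (-0.96), Dgat2 (-0.46) and Dgat1 (-0.41), of which Dgat2 turned to 0.50 without those clusters (limma adjusted p = 0.0046) and the others were no longer called. Without the clusters 16 genes of the list were higher, beside 26.3% of all genes, and 2 were lower, beside 12.4%. Of the 16 higher genes over all cells 10 were still called in that direction, and of the 11 lower genes 0, while Apobr turned from -0.15 to 0.57 (limma adjusted p = 0.00094).

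Within the tumors, the members marked different cells. Cluster 10 (79 cells, osteoclast-like by 4 of 4 markers and led by Ctsk and Acp5) held Lpl at 5.07, 3.09, 4.79 and 4.53 counts per cell in libraries 2 to 5 and Pltp at 3.45, 4.0, 2.38 and 3.13, and it carried 26.0% of all Lpl counts. Cluster 5 (995 cells, macrophage-like, led by C1qc, C1qa and C1qb) held Lpl at 0.80, 0.430, 0.661 and 0.365 and carried 47.6% of the Lpl counts, with Apoe at 15.7 to 25.1 and Fabp5 at 3.46 to 9.40. Both clusters met markers of dividing cells as well. Most Lpl of the tumor libraries thus came from 2 clusters. Library 2, with the most Lpl in its Csf1r-positive cells (0.308), had 24.5% of those cells in cluster 5, against 6.40%, 13% and 9.13% in the other libraries. Library 4, with 13%, had nearly as much Lpl (0.261), and the part of cluster shares in the Lpl of a library was not tested.

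Plin2 had its highest mean in cluster 0 (2797 cells, neutrophil-like, with 4 of 6 macrophage markers also raised), at 10.1, 14.1, 10.51 and 13.7 counts per cell. Among clusters that are mostly Csf1r-positive it was highest in cluster 1 (2437 cells, with monocyte and macrophage markers, led by Sdc1, Inhba and Arg1), at 9.33, 10.7, 8.94 and 9.88. That cluster held 31.1% to 42.3% of the Csf1r-positive cells, with Abca1 at 1.44 to 1.67, Fabp5 at 6.17 to 9.46 and Lpl at 0.00932 to 0.0426. Cluster 7 (316 cells, macrophage-like, led by Ccl8, Cd163 and Mrc1) had the highest Apoe, at 41.2, 25.0, 18.1 and 23.7. Cluster 4 (1057 cells, monocyte-like) had Apoe at 12.2 to 20.1 but Fabp5 at 0.311 to 0.750 and Abca1 at 0.241 to 0.433.

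In Csf1r-positive tumor cells, Plin2 went with Abca1 (rho 0.26, 0.26, 0.26 and 0.21 in libraries 2 to 5) and against Pltp (-0.15, -0.24, -0.22 and -0.18), whereas in the cultures Plin2 and Abca1 had a rho of -0.10 to -0.06 and Plin2 and Pltp one between -0.05 and 0.02. Without neutrophil-like, B-like and dendritic-like clusters, the rho of Plin2 was 0.29, 0.33, 0.33 and 0.27 with Abca1 and -0.15, -0.23, -0.24 and -0.19 with Pltp. Over all Csf1r-positive cells, the number of genes detected went against Plin2 (rho -0.11, -0.32, -0.21 and -0.22) and with Pltp (0.13, 0.29, 0.19 and 0.20). Its rho with Abca1 was -0.15 to -0.05, and the part of detection in these relations was not tested. The 468, 226, 280 and 314 Csf1r-positive tumor cells with least Plin2 held 0.607, 0.50, 0.561 and 0.640 Abca1 counts per cell, and as many with most Plin2 held 1.57, 1.46, 1.87 and 1.44. Fabp5 went from 2.56, 0.717, 1.48 and 0.943 to 12.8, 6.63, 11.7 and 8.5 between the same cells. These low and high cells include neutrophil-like ones, whose part in the values was not tested. The genes nearest to Plin2 in these cells were Hilpda, which inhibits droplet lipolysis under low oxygen, Hmox1 and Ero1l (mean rho 0.52, 0.50 and 0.49 of 7207 genes), unlike the Ctsl and Ftl1 of Mo-MF. Abca1 was nearest to Clec4d, Cxcl2 and Srgn (0.37, 0.34 and 0.33). Nearest genes in the tumors, here and below, were taken over all Csf1r-positive cells. These include neutrophil-like cells, whose part in the nearest genes was not tested.

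Lpl differed between tumors and cultures in its relation to Pltp and Plin2. Cells with an Lpl count (150, 24, 82 and 55 of the Csf1r-positive cells) held 1.51, 2.38, 1.88 and 1.38 Pltp counts per cell, and cells without one held 0.692, 0.497, 0.563 and 0.453. Plin2 was at 3.67, 4.33, 3.66 and 4.87 in cells with an Lpl count and at 6.34, 7.90, 5.78 and 7.10 in those without. In libraries 2 and 4, where Lpl was counted in at least 5% of cells, its rho was 0.13 and 0.20 with Pltp and -0.14 and -0.13 with Plin2, the reverse of the signs in both cultures. Its rho with Apoe in these libraries was near 0, at -0.053 and -0.010. No test of this difference was made, since cells are not replicates. Of the Csf1r-positive cells of libraries 2 and 4, 14.6% and 20.5% lay in neutrophil-like clusters, and osteoclast-like cells with much Lpl and Pltp were also among them. The part of this mixture of cells in the relations of Lpl was not tested. Apoe was nearest to Lgmn, Ctsb and Ctss (0.53, 0.43 and 0.41), Fabp5 to Ftl1, Ctsb and Mif (0.35, 0.34 and 0.30), Pltp to mt-Nd1, Cd72 and Cxcl16 (0.30 each) and Abcg1 to Ctsb, Lgmn and Ftl1 (0.20, 0.18 and 0.18), values from sparse counts.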

How the data were processed

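The deposited single-cell values were the natural log of 1 plus a count corrected by SCTransform in Seurat after Cell Ranger, made by the authors from 10x Chromium 3′ libraries, with cultures and tumors in separate tables. Corrected counts were recovered as whole numbers within 0.01. The 4 tumor columns could not be tied to single tumor replicates, only to the group. The ATAC-seq lists held, as deposited by the authors, fold enrichment and −log10 q-values from MACS2, called in each library after cutadapt and BWA alignment to mm10; a list merged over libraries was not used.

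The tools are credited to the submitters' processing notes and the study's methods. Cells were averaged within a library. Log2 of the mean plus 0.1 was fitted with limma 3.58.1 in R 4.3.3 for all genes whose mean reached 0.1 (two-sided, adjusted by Benjamini-Hochberg, threshold 0.05). The tumor fit had library as a block. Shares and rho were checked after thinning cells to 10000 (cultures) or 4000 (tumors) counts. Leiden clusters (leidenalg 0.10.2) used 30 components of 2000 variable genes, 20 neighbors and a resolution of 0.5, and each took the class whose marker list ranked first. Doublets were not called. Promoter sequences came from RefSeq, and fits were tested on simulated data.

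Members and lists were chosen with earlier results of these data known. Named beside the members were Csf1r, the 5 other lipid genes with the largest called differences in each direction, and the 3 genes with the highest mean rho to each member. One gene that this rule names is not reported here. The lysosomal and regulator genes named beyond these were chosen after their values were seen.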

Additional observations from a re-analysis of the deposited data

Results flagged for a closer look

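In 35 groups of 4 tumor libraries checked for a single library far from the rest, 2 were found, where chance gives about 1 in 20 groups (1.75 here). Mean Apoe in the Csf1r-negative cells of tumor library 2 was 6.24 corrected counts per cell, while the other libraries had 3.21 to 3.47, so that the gap was 0.917 of the whole range. The log2 difference of Apoe between Csf1r-positive and Csf1r-negative cells was 1.73 in that library and 1.93 to 2.22 in the others. The rho of Abca1 with Plin2 over Csf1r-positive cells was 0.21 in tumor library 5 and 0.26 in the others, with a gap of 0.911 of the range.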

How the results depend on the processing

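For B-MF against Mo-MF, 124 of 130 member values under 13 other settings kept direction and call, 6 lost the call and 0 changed direction. These 6 were Abca1 and Pltp values. With 1 replicate left out, 2 members stayed higher and 6 to 8 were lower, while other lipid genes higher in B-MF ranged from 9 to 18, with 18 when B-MF replicate 2 was left out and 11 with all libraries. Whether replicate numbers pair the libraries is not known, since 2 pairs (r = 0.126 of the replicate 1 deviations over genes) cannot decide it. A fit with the replicate block called 2 members higher and 8 lower (25.9% and 19.3% of genes).

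For the tumor cells, 78 of 97 member values kept direction and call, 9 lost the call and 10 changed direction. All 10 came from removing clusters. Without neutrophil-like clusters 3 members were higher and 0 lower, also per 10000 corrected counts (chosen after the data were seen, 20.2% and 14.2% of genes). Abca1 went to 0.0939 and, per 10000, 0.0543, Abcg1 to -0.13 and -0.17, Fabp5 to -0.17 and -0.21, and Plin2 to 0.13 and 0.0839. Without B-like and dendritic-like clusters as well (also chosen then), 2 members were higher and 2 lower, with Abcg1 at -0.099 and Fabp5 at -0.46. Of the other lipid genes 7 were higher and 6 lower in that fit, beside 14.2% and 2.49% of all genes. Other lipid genes lower in Csf1r-positive cells went from 11 to 2 without neutrophil-like clusters and, per 10000, 2 (17.1%, 12.4% and 14.2% of all genes). Those higher went from 16 to 28 without the filter on low values, which admits more genes (44.0% of all genes higher). With 1 library left out, 1 to 2 members were lower, the 1 without library 5, beside 15.5% to 16.6% of all genes. With no replicate block, 4 members were higher and 2 lower (63.3% and 14.1% of genes).

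The rho of Pltp with Plin2 lay near 0 and changed sign in the cultures. It ranged from -0.0144 to 0.0211 in B-MF and from -0.0471 to 0.00158 in Mo-MF with 1 replicate left out, and Pearson r was 0.0169 in Mo-MF. A window of 250 bases around the start gave 6, 5, 5 and 5 members with a peak (50.9%, 50.3%, 45.8% and 44.8% of genes) in BM CSF1R+, BM CSF1R-, spleen CSF1R+ and spleen CSF1R- cells, and 5000 bases gave 9, 8, 7 and 7 (63.3%, 62.5%, 56.1% and 54.8%). Counts are corrected, so sequencing depth limits low members such as Fabp3 and Mgll in the tumors in a way these tables do not show.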
